A study of Mus musculus with 14 samples.

Results

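Pax3, Tlx1 and Hlx encode developmental transcription factors, and a long stretch of H3K27me3 was called in the window of each in Myc-driven tumour cells. Each gene was given a window in build mm9: chromosome 1 from 78.08 to 78.23 Mb for Pax3, chromosome 19 from 45.20 to 45.26 Mb for Tlx1 and chromosome 1 from 186.52 to 186.58 Mb for Hlx. Every region of 11 deposited lists that shared at least 1 bp with a window was taken, which gave 54 of 201448 regions, 25 for Pax3, 12 for Tlx1 and 17 for Hlx. The genes were chosen by their H3K27me3 calls in tumour cells, namely long islands in Cas9 cells with no island of Ezh2 knockout cells over them. That contrast is therefore described here and not tested.

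The assay was ChIP-seq: an antibody pulls down chromatin that carries a mark or protein, and its DNA is sequenced. Tumour cells labelled Cas9, the control, were p53-/-;p18-/-, and those labelled Ezh2KO were p53-/-;p18-/-;Ezh2-/-, and per the design text the tumorspheres overexpress Myc and Ezh2 was knocked out with a Cas9 vector. Per the growth protocol, tumorspheres received retroviral vectors, the RFP+/GFP+ cells were sorted and expanded, and cells were then transplanted into the cerebral cortex of CD-1 nu/nu mice. The labels do not say whether the profiled cells came from culture or from these mice, or whether the knockout is 1 clone. The tumour cells were profiled for H3K27me3, H3K27ac and H3K4me3. Neurospheres, floating cultures of neural cells, were also p53-/-;p18-/-. Of these, U6, Suz12F1 and Suz12F2 cells were profiled for Cas9, and Cas9 and Suz12F2 cells for Gfi1. The labels do not explain U6, F1 or F2. With 1 library in each group there is no replicate error on any value, and no test across samples was possible. A mark called in some cells only and a mark that is weak in all of them cannot be told apart in such lists. Read depth is unknown. The lists hold no gene expression, so the labelled cell types could not be checked against marker genes.

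Polycomb repressive complex 2, whose catalytic subunit is Ezh2 and which also contains Suz12, places H3K27me3 on chromatin linked to gene silencing. Genes for developmental transcription factors are its best known targets, and their Polycomb domains often spread well beyond the gene itself. H3K4me3 marks promoters and H3K27ac marks active promoters and enhancers. Pax3 is a paired box and homeodomain factor of the dorsal neural tube, neural crest and muscle progenitors. Tlx1, also named Hox11, is a homeodomain factor needed to form the spleen and an oncogene in T-cell leukaemia. Hlx is a homeodomain factor of the mesenchyme around the developing gut and liver and of blood cells.

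Of the 3 genes, 2 had a promoter in the RefSeq table of build GRCm38.p6, Tlx1 on the plus strand and Hlx on the minus strand. The 250 bases before each start are shown because H3K4me3 and Polycomb domains commonly lie over promoters rich in CG dinucleotides, which are in capitals. These positions, chr19:45150465-45150714 and chr1:184732494-184732743, belong to GRCm38.p6 and cannot be set against the mm9 positions of the peaks.
Tlx1: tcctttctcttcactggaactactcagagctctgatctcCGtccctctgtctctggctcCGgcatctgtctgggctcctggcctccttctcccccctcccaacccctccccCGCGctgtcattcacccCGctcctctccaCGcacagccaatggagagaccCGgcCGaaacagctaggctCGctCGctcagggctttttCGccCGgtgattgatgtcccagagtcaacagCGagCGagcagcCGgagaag
Hlx: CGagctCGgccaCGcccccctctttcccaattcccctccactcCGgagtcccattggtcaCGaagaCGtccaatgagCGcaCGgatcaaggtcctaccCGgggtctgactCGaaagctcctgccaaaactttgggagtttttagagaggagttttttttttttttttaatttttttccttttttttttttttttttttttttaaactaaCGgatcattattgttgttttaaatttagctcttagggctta
Over the full 300 bases of the table, which end 50 bases after the start, Tlx1 held 16 CG dinucleotides and Hlx 14, where the median of 32851 promoters was 7. At least as many CG as in Tlx1 were found in 33.0% of all promoters and at least as many as in Hlx in 36.3%. Both counts were thus above the median and neither was rare. GC content was 61.7% for Tlx1 and 44.3% for Hlx, with a median of 52.7% over all promoters. The low value of Hlx goes with the long runs of T visible in its sequence. The core motif AATC of Gfi1, searched on both strands, occurred once in the Tlx1 promoter and did not occur in that of Hlx, while 73.1% of all promoters held at least 1 match.

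H3K27me3 covered most of each window in Cas9 tumour cells and was not called in any of them in the knockout. The Pax3 window held 7 islands, meaning runs of enriched 200 bp stretches joined across gaps, the Tlx1 window 2 and the Hlx window 5. They covered 57.3% of the Pax3 window, 79.0% of the Tlx1 window and 70.0% of the Hlx window, against 0% of all 3 windows in the knockout. None of the 14 islands had a knockout island over it, which is how the windows were chosen. Over all 14107 islands of Cas9 cells 88.1% had none, and over the 231 islands of 20 kb or more 53.7% (Wilson 95% interval for counting error, 47.2 to 60.0) had none. The authors numbered the regions of the 6 tumour lists, and these numbers ran on without a gap across all 3 windows, so that no entry was missing there. Elsewhere the H3K27me3 list of the knockout skipped numbers, because it holds 5312 regions while its numbers reach at least 5385.

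**Figure D1:**
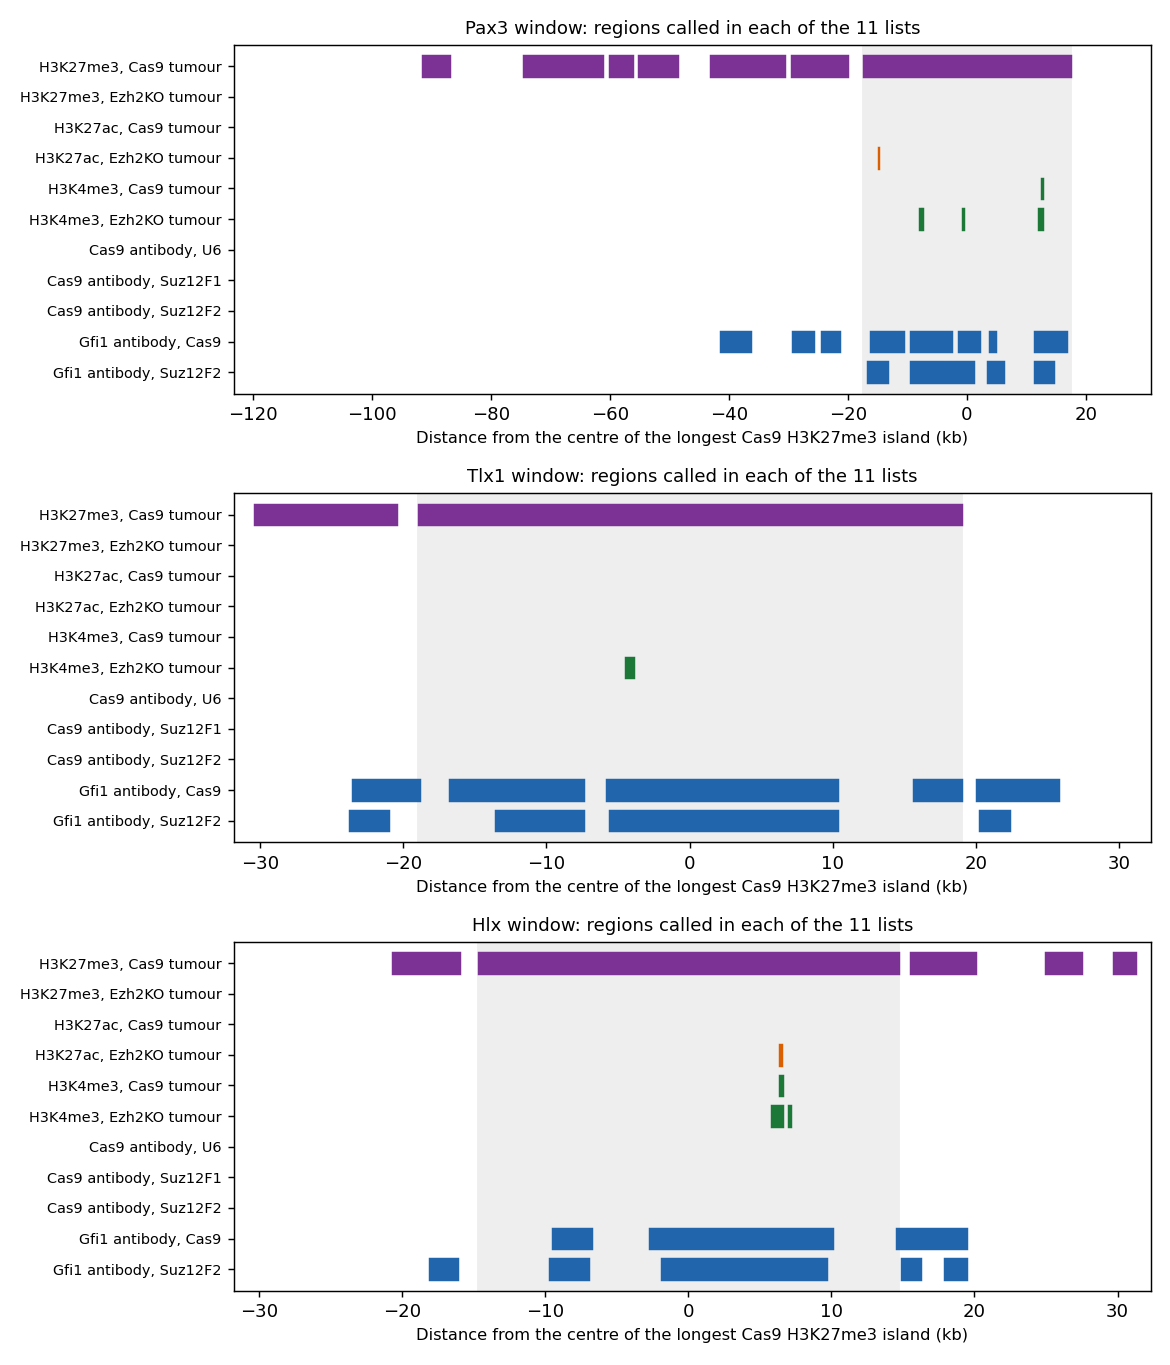
Regions called in each of the 11 lists, drawn as bars, across the windows of Pax3, Tlx1 and Hlx. The x axis is the distance in kb from the centre of the longest H3K27me3 island of Cas9 cells, which is shaded, and its scale differs between panels. The row of H3K27me3 in knockout cells is empty in all 3 panels, and all H3K4me3 and H3K27ac peaks lie within the shaded islands.

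The longest island of each window is called its domain below. The Pax3 domain ran from 78183601 to 78218600 on chromosome 1, a length of 35000 bp, with an authors' score of 951. The Tlx1 domain ran from 45210801 to 45248800 on chromosome 19, a length of 38000 bp, with a score of 940. The Hlx domain ran from 186535001 to 186564400 on chromosome 1, a length of 29400 bp, with a score of 866. What the score measures is not stated in the sources used, it grows with length, and it only ranks regions within 1 list here. By score the domains of Pax3, Tlx1 and Hlx ranked 23, 24 and 36 of the 14107 islands, and by length they ranked 40, 27 and 67.

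Among the 124 islands of 20 kb or more called in Cas9 cells alone, the domains had scores above the median for their length. Islands of that length with a knockout island over them were left out of this comparison. The score per kb was 27.2 for Pax3, 24.7 for Tlx1 and 29.5 for Hlx, where the median of the 124 islands of 20 kb or more called in Cas9 cells alone was 20.6 and the highest 31.4. Hlx, the shortest of the 3, ranked 5 of these 124, Pax3 12 and Tlx1 22. The smaller islands around each domain had a lower score per kb than the domain, where the median over all 14107 islands was 14.9. Each domain was picked as the longest island of its window, and the median of the 124 long islands was also above 14.9. Nothing further is therefore read from this contrast. The other 6 islands of the Pax3 window had 12.2 to 17.8 per kb, the other 4 of the Hlx window 13.1 to 19.4, and the single other island of the Tlx1 window 19.6.

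**Figure D2:**
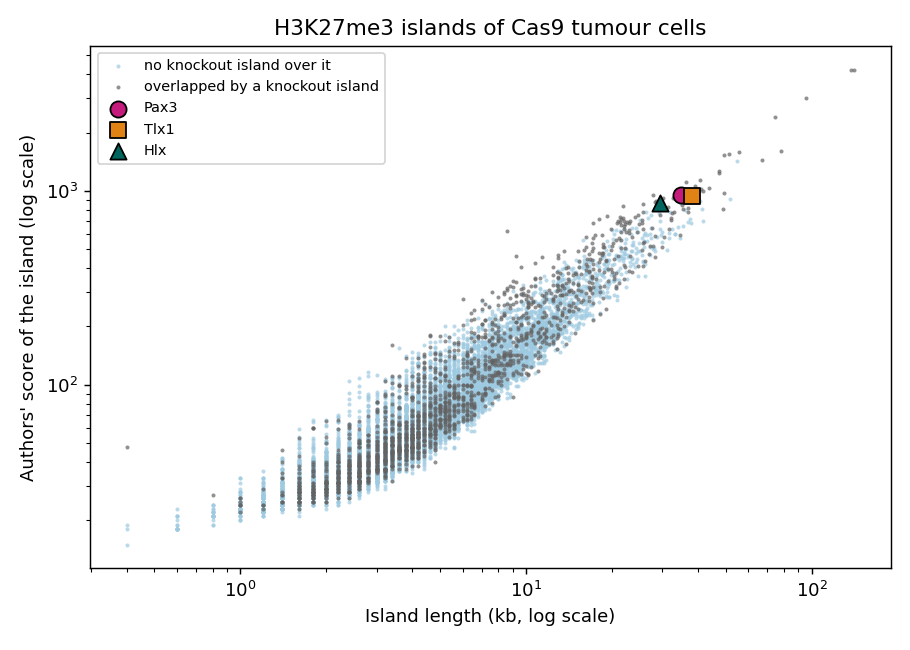
Each point is 1 of the 14107 H3K27me3 islands of Cas9 tumour cells, by length in kb on the x axis and authors' score on the y axis, both on log scales. The domains of Pax3, Tlx1 and Hlx, at 35, 38 and 29.4 kb, lie near the upper right end of the points with no knockout island over them.

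The smaller islands lay differently around the 3 domains. Within the Pax3 window they all lay on the side of lower coordinates, reaching from 78109601 on, with gaps of 0.8 to 12.4 kb. On the other side the next island began 11.4 kb from the domain, just outside the window. The Pax3 gene itself spans 95.9 kb in RefSeq. At Hlx, a gene of 5.35 kb, smaller islands flanked the domain on both sides, with gaps of 0.8 to 4.8 kb. Tlx1, a gene of 6.85 kb, had 1 flanking island of 10000 bp at a gap of 1.4 kb. That island starts at 45199401, before the window does, and the last island of the Hlx window ends at 186581000, after it. The nearest islands left outside were those ending at 45197600 for Tlx1, with a score of 100, those starting at 78230001 for Pax3, with a score of 66, and at 186584801 for Hlx, with a score of 56. The gene positions within these islands are not given, because no mm9 annotation was used here.

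The nearest H3K27me3 island of knockout cells lay far from Pax3 and Hlx and close to Tlx1. From the edge of the Pax3 domain the distance was 1082 kb on one side and 2549 kb on the other. From Hlx it was 543 and 775 kb, and from Tlx1 49.8 and 299 kb. Within 1 Mb of the domain there were 0 knockout islands at Pax3, 3 at Hlx and 6 at Tlx1. The median distance over the 124 islands called in Cas9 cells alone was 97.6 kb. Pax3 ranked 5 and Hlx 18 of 124 from the farthest, while Tlx1, at rank 78, was closer than the median. These distances come from the contrast that chose the members and are given as a description only.

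H3K4me3 was called at 1 peak in the Pax3 domain, 0 in the Tlx1 domain and 1 in the Hlx domain in Cas9 cells, and at 4, 1 and 2 peaks in the knockout. Of the 124 islands of 20 kb or more called in Cas9 cells alone, 25.8% (18.9 to 34.2) held an H3K4me3 peak in Cas9 cells and 39.5% (31.4 to 48.3) in the knockout. Peaks called in the knockout alone numbered 3 at Pax3, 1 at Tlx1 and 1 at Hlx, so that all 3 domains held at least 1. At Hlx the count was 0 where no Cas9 peak was allowed within 1 kb. Over the 124 islands, 27 held such a peak, or 21.8% (15.4 to 29.8), and over all 12427 islands called in Cas9 cells alone 3.61% did. The domains were proposed with these lists known, so nothing is read from the members' count against this share. Of the 124 islands, 5 held 3 or more peaks of the knockout alone, or 4.03% (1.73 to 9.09), and Pax3 was 1 of them. These peaks scored low: with the upper 50% of scores of each list, 0 were left at Pax3 and Tlx1, and the 1 counted at Hlx was then the peak whose Cas9 partner had dropped out.

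At Pax3 the H3K4me3 peaks of the knockout were spread over 20.9 kb of the domain. The first 2, at 78193067 to 78193394 and 78193537 to 78193740, were 328 and 204 bp wide and stood 142 bp apart, at 27.5% and 28.7% of the domain's length. The next, at 78200369 to 78200634, lay 6.63 kb further, near the middle of the domain. These 3 were called in the knockout alone and had low scores of 18, 13 and 10, above 36.6%, 16.0% and 2.83% of the knockout list. The fourth peak, at 78213158 to 78213988, lay over the single Cas9 peak of the domain, at 78213572 to 78213922. That Cas9 peak had a score of 9, above 0.439% of its list.

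At Tlx1 a single H3K4me3 peak of the knockout, at 45225318 to 45225938, stood in a domain with no peak of either active mark in Cas9 cells. It was 621 bp wide, wider than 61.6% of the knockout list, with a score of 13, above 16.0% of it. It lay at 39.0% of the domain's length.

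At Hlx the H3K4me3 peaks lay together in 1 place, at 71.2% to 74.1% of the domain's length. Cas9 cells had a peak at 186556019 to 186556351, with a score of 14, inside the H3K27me3 domain. H3K4me3 and H3K27me3 were thus both called there in Cas9 cells, a pairing known as bivalent when both marks sit on the same chromatin, which these lists cannot show. The knockout had a peak over it, at 186555508 to 186556363, with a score of 28, above 65.9% of its list. The peak of the knockout alone, at 186556682 to 186556861, was 180 bp wide, the shortest width in that list, and began 318 bp after the shared peak.

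**Figure D3:**
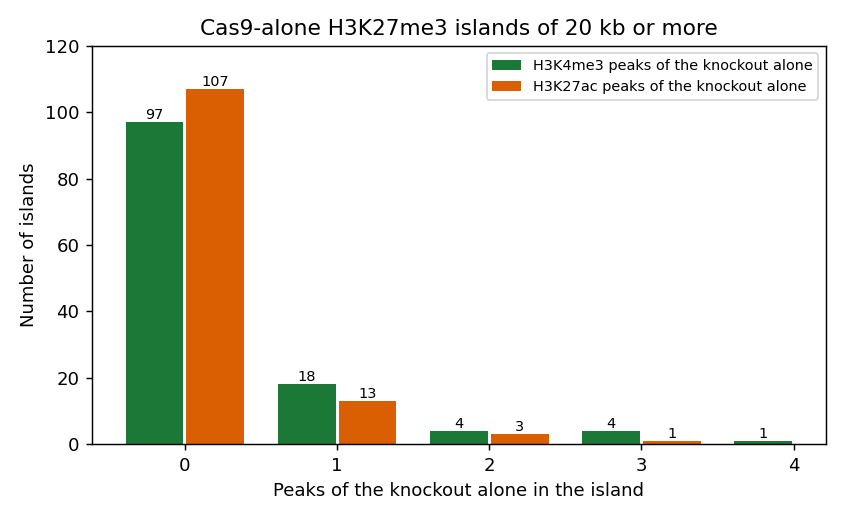
Number of the 124 H3K27me3 islands of 20 kb or more called in Cas9 cells alone, on the y axis, by how many H3K4me3 or H3K27ac peaks of the knockout alone they held, on the x axis. Most held none (97 for H3K4me3 and 107 for H3K27ac), Pax3 is among the 4 islands with 3 H3K4me3 peaks, and Tlx1 and Hlx are among the 18 with 1.

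The peaks called in both kinds of cell were wider in the knockout at Pax3 and Hlx. The Pax3 peak measured 351 bp in Cas9 cells and 831 bp in the knockout, 2.37 times as wide. The Hlx peak measured 333 bp in Cas9 cells and 856 bp in the knockout, 2.57 times as wide. Most of the added width lay on the side of lower coordinates, 414 of the 480 added bp at Pax3 and 511 of the 523 at Hlx. Peaks with exactly 1 partner in the other list went mostly the other way, with a median ratio of 0.901 over 10175 pairs, and 1.32% (1.11 to 1.56) were at least 2 times as wide in the knockout.

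The share of widened peaks was itself higher within H3K27me3. Among 1145 pairs in islands called in Cas9 cells alone the median ratio was 1.03, and 6.55% (5.26 to 8.13) were at least 2 times as wide, against 0.653% (0.507 to 0.842) of the 9030 pairs elsewhere. Both members were under 400 bp in Cas9 cells. Among pairs under 400 bp the shares were 19.2% (15.4 to 23.6) of 354 in such islands and 3.54% (2.75 to 4.55) of 1637 elsewhere. In islands of 20 kb or more, 5 of 30 pairs, or 16.7% (7.34 to 33.6), were at least 2 times as wide, and Pax3 and Hlx were 2 of these 5. Because the domains were proposed with these lists known, nothing is read from the members' widths against these shares. Peak width can depend on read depth, which is unknown here, and its part in the ratios was not tested.

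**Figure D4:**
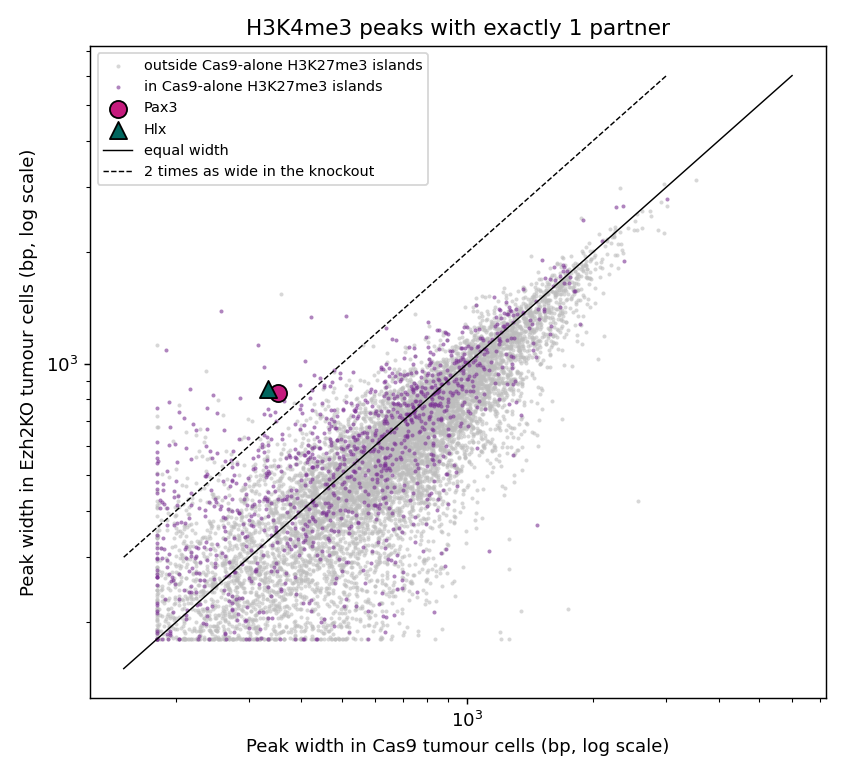
Width in bp of each H3K4me3 peak with exactly 1 partner, in Cas9 cells on the x axis and in the knockout on the y axis, both on log scales. Solid and dashed lines mark equal width and 2 times the width, and the peaks of Pax3 and Hlx, at 351 and 333 bp in Cas9 cells, lie above the dashed line.

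H3K27ac was not called in any of the 3 windows in Cas9 cells, and in the knockout it was called at 1 peak at Pax3 and 1 at Hlx. At Tlx1 it was called in neither. In Cas9 cells 1.61% (0.443 to 5.69) of the 124 islands held H3K27ac. Peaks of H3K27ac without a Cas9 partner were called in the knockout in 17 of them, 13.7% (8.74 to 20.9), and 9 held such peaks of both marks, 7.26% (3.87 to 13.2). Pax3 and Hlx are among these 9, from which nothing is read because the domains were proposed with these lists known. The knockout list is longer, with 10112 H3K27ac peaks against 7951 in Cas9 cells. With both cut to the same number by score, the share with H3K27ac of the knockout alone was 7.26%, the Pax3 domain held 0 such peaks and the Hlx domain still 1. Over all islands called in Cas9 cells alone the shares were 4.87% and 0.748%.

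The 2 acetylated sites were placed differently. At Hlx the H3K27ac peak, at 186556016 to 186556284, lay within the shared H3K4me3 peak of the knockout and over the Cas9 H3K4me3 peak. It was 269 bp wide, with a score of 17.47, above 41.2% of its list. At Pax3 the H3K27ac peak, at 78186187 to 78186360, lay near the edge of the domain, at 7.64% of its length and 6.71 kb from the nearest H3K4me3 peak of the knockout. It was 174 bp wide, where the shortest of its list is 170 bp, with a score of 12.19, above 9.76% of the list. Of all 2843 H3K27ac peaks of the knockout alone, 84.8% (83.4 to 86.0) overlapped an H3K4me3 peak of the knockout, as the Hlx peak did and the Pax3 peak did not. With the upper 50% of scores, 0 H3K27ac peaks were left in either domain.

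Outside the domains no active mark was called in the windows. The nearest H3K4me3 peaks of Cas9 cells lay 266 kb from the Pax3 domain, 59.2 kb from Tlx1 and 105 kb from Hlx. In the knockout the distances were 88.3, 59.3 and 105 kb. The nearer peak at Pax3 ran from 78306888 to 78307089 and had a score of 11. The nearest H3K27ac peaks stood at 266, 61.1 and 105 kb in both kinds of cell.

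Neurospheres of the same p53 and p18 genotype were covered in the domains by regions found with the Gfi1 antibody. Gfi1 is a zinc finger repressor of transcription, and per the series title it is upregulated when Ezh2 is inactivated. The lists are long, with 368 Mb covered in Cas9 neurospheres and 294 Mb in Suz12F2 neurospheres, and all 124 islands of 20 kb or more, 100%, held such a region in both. Neither library has an input of its own among the samples, which limits reading the regions as Gfi1 binding. In Cas9 neurospheres the regions covered 66.9% of the Pax3 domain, 76.8% of the Tlx1 domain and 53.7% of the Hlx domain. In Suz12F2 neurospheres they covered 58.3%, 58.4% and 49.0%. The medians over the 124 islands were 87.8% and 78.0%, so all 3 domains lay below the median in both lists.

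Cover was lower in Suz12F2 than in Cas9 neurospheres in all 3 domains, by a Suz12F2 minus Cas9 difference of -8.57 percentage points at Pax3, -18.4 at Tlx1 and -4.76 at Hlx. This was also so for 71.0% (62.4 to 78.2) of the 124 islands, with a median difference of -6.15 points, so the members did not stand out in direction. The order changed with a cut to the upper 50% of scores of each list. Cover was then 52.6% and 58.3% at Pax3 and 44.2% and 49.0% at Hlx, lower in Cas9 neurospheres. Tlx1 kept its order at 67.9% and 58.4%. The cut fell at unlike scores, the list medians of 150 in Cas9 and 99 in Suz12F2 neurospheres. At Hlx it removed a Cas9 region with a score of 135. A Suz12F2 region at nearly the same place, with a score of 128, was kept. The changed order is therefore not read as stronger regions in Suz12F2 neurospheres. At Tlx1 the region from 45245401 to 45248800 was called in Cas9 neurospheres alone, and the largest region, from 45224001 to 45240200, was nearly the same in Suz12F2 neurospheres, from 45224201 to 45240200. At Hlx the largest region ran from 186547001 to 186559800 in Cas9 and from 186547801 to 186559400 in Suz12F2 neurospheres. At Pax3, 3 regions outside the domain, between 78159601 and 78179800, were called in Cas9 neurospheres alone. With both lists cut to 63177 regions by score, only the Suz12F2 list, of 67079, lost regions. All its regions in the domains scored too high to be lost, so the cover of the 3 domains could not change. Whether depth plays a part in these differences was not tested.

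**Figure D5:**
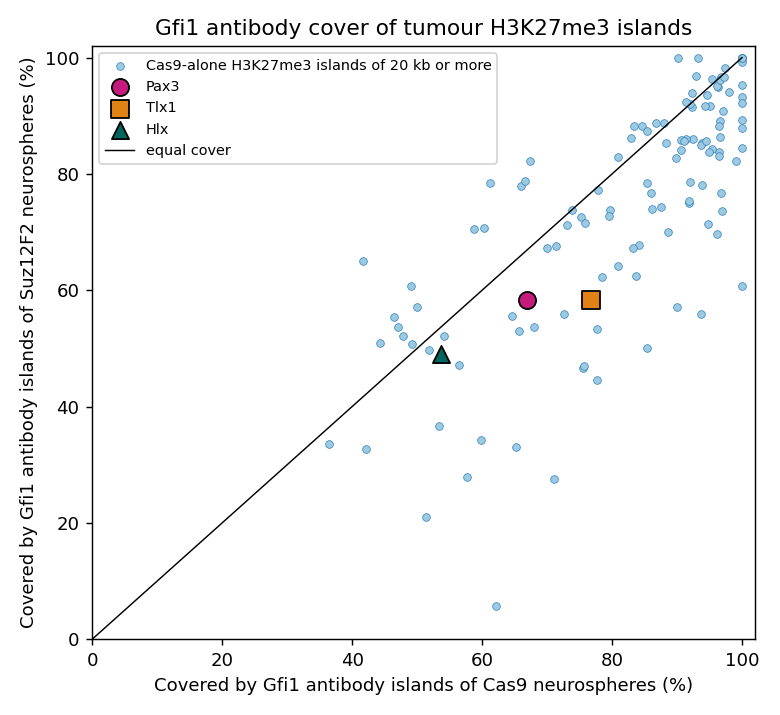
Share of each of the 124 H3K27me3 islands of 20 kb or more called in Cas9 tumour cells alone that Gfi1 antibody regions covered, in Cas9 neurospheres on the x axis and Suz12F2 neurospheres on the y axis, in percent. Pax3, Tlx1 and Hlx lie below the line of equal cover, at 66.9% and 58.3%, 76.8% and 58.4%, and 53.7% and 49.0%.

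All 9 H3K4me3 and H3K27ac peaks of knockout tumour cells in the domains lay in Gfi1 antibody regions of both kinds of neurospheres. This is close to the background of 87.1% (86.5 to 87.6) of H3K4me3 peaks and 87.8% (87.2 to 88.4) of H3K27ac peaks of the knockout. For peaks of the knockout alone, as 7 of the 9 were, it was 86.0% (84.1 to 87.7) and 89.1% (87.9 to 90.2). The region around the Hlx peaks was the largest of its domain, as was that around the Tlx1 peak. With the Cas9 antibody no region was called in any of the 3 windows in cells labelled U6, Suz12F1 or Suz12F2. Of the 124 islands 81.5% (73.7 to 87.3) likewise held none.

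Across the 10 lists other than H3K27me3 of Cas9 cells, Pax3 and Hlx both had regions in 5 and both had none in 5, among the latter H3K27me3 of the knockout, whose absence chose them. Tlx1 matched each of them in 8 of 10, with regions shared in 3. Most of these lists varied little over the 124 islands. Both Gfi1 antibody lists had regions in 100% of them and H3K27ac of Cas9 cells in 1.61%, while 81.5% held no Cas9 antibody region. Little is therefore read from these counts of matching lists. The lists that set Tlx1 apart were H3K4me3 of Cas9 cells and H3K27ac of the knockout. At Pax3 each of these calls rested on 1 low-scoring peak, above 0.439% and 9.76% of its list. With lists of equal number the H3K27ac peak at Pax3 was no longer counted. Likeness was then measured as the summed difference in the number of overlapping regions over these 10 lists, among the 124 islands. A small difference does not mean the same marks, because the number of Gfi1 antibody regions weighs in it as much as the peaks do. The closest to Tlx1 were chr19:45366201-45387800 and chr15:102880601-102902400, each with a difference of 1, and chr11:95969801-96011400, with 2. The island on chromosome 15 matched Tlx1 in its Gfi1 antibody counts but held no H3K4me3 peak in the knockout. The closest to Hlx were chr19:10446401-10468400 and chr4:41565801-41589000, with 2 each, and chr11:83222801-83260200, with 3. The closest to Pax3 were chr11:96038801-96079600 and chr12:74135601-74158000, with 4 each, and chr8:87452401-87477400, with 5. Between the members the difference was 4 for Tlx1 and Hlx, 6 for Pax3 and Hlx and 8 for Pax3 and Tlx1, so each had other islands closer to it than the other two members.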

How the data were processed

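ChIP-seq lists of 14 libraries were considered, 8 of tumour cells and 6 of neurospheres. The 11 deposited lists each come from 1 library, and the 3 inputs were not used here. These inputs are labelled Cas9 tumour, Ezh2KO tumour and U6 neurosphere, so the Gfi1 antibody, Suz12F1 and Suz12F2 libraries have none of their own. The submitters' processing notes name SICER 1.1, BWA 0.5.9-r26, R 2.14.0, SAMtools, Picard and mm9 as the build, with no role stated. The names of the authors' island lists give 200 bp windows, 600 bp gaps and a false discovery rate of 0.00001. For the narrow peaks the caller is not stated in the sources used. Each deposited region carries a score from the authors, of unstated meaning. Library totals are not in the lists, so depth is unknown.

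Groups followed the titles. Because island ends name the last base counted from 0, 1 bp was added to each. A region counted as overlapping from 1 bp on, and as alone where no region of the other list overlapped it. Shares carry Wilson 95% intervals, for counting error only. No test was made, with 1 library per group. Overlaps were checked with bedtools 2.31.1 over 110 ordered pairs of lists, of which 0 differed, and tested on simulated data. Python 3.11.15, numpy 2.4.6, scipy 1.17.1 and matplotlib 3.10.9 were used. The regions named are the members' own and, for likeness, the 3 closest islands per member, with counts limited to 10 and ties broken by score. RefSeq gene names and promoters are of GRCm38.p6, in which 3 and 2 of the 3 genes matched. The members, lists and rules were chosen with earlier results of these data known. Alternatives were a wider window, the upper 50% of scores, lists of equal number, 50% of a peak inside, a 1 kb margin, the whole window, other length limits and merging within 5 kb.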

Additional observations from a re-analysis of the deposited data

How the results depend on the processing

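Of 77 alternative values, 54 kept to the reported value within its counting interval or, for counts, within 1.5 times. Some of these could not move. A knockout cover of 0% stays at 0% when the list is cut by score, as does the H3K27ac count of 0 at Tlx1. The number that kept is therefore no measure of how firm the results are. In the window widened by 50 kb on each side, H3K27me3 of Cas9 cells covered 36.5% at Pax3, 60.0% at Tlx1 and 43.1% at Hlx, and that of the knockout covered 6.62% at Tlx1 and 0% at the other two. With lists of equal number the Cas9 cover of the Hlx window was 49.0%. In the upper 50% of scores, the domains of Pax3 and Hlx held 0 H3K27ac peaks of the knockout alone, and those of Pax3 and Tlx1 held 0 such H3K4me3 peaks. At Hlx that setting left 1, the peak with a Cas9 partner of too low a score. With lists of equal number the H3K27ac count at Pax3 was 0, and with a 1 kb margin the H3K4me3 count at Hlx was 0. The cause was not tested beyond the low scores given above.

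Over the whole window, Gfi1 antibody cover in Cas9 and Suz12F2 neurospheres was 23.6% and 13.6% at Pax3, 66.0% and 45.3% at Tlx1, and 34.3% and 32.3% at Hlx. In the upper 50% of scores the cover in Cas9 neurospheres was 52.6%, 67.9% and 44.2%, so that it was below that of Suz12F2 neurospheres at Pax3 and Hlx. That cut fell at a score of 150 in the Cas9 list and 99 in the Suz12F2 list, so it did not treat them alike. For islands of 10 kb or more, 7.42% held an H3K27ac and 12.6% an H3K4me3 peak of the knockout alone, and with equal peak numbers 7.26% of those of 20 kb or more held H3K27ac. No paired analysis was possible because each group held 1 library. Unknown depth limits every comparison of lists.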

Other observations

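Beyond the Tlx1 window, the next H3K27me3 island of Cas9 cells on chromosome 19 ran from 45292601 to 45329000, 43.8 kb from the Tlx1 domain. At 36.4 kb it was nearly as long as the Tlx1 domain, and its score of 1114 was higher. Unlike the Tlx1 domain it was overlapped in the knockout, by 2 islands that covered 33.0% of it, and neither Cas9 cells nor the knockout had a peak of H3K4me3 or H3K27ac in it. In RefSeq's order of genes Lbx1, a homeodomain factor of dorsal spinal cord neurons and muscle precursors, is the protein-coding gene that follows Tlx1, but whether this island covers it cannot be said without an mm9 annotation.

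When H3K27me3 islands within 5 kb of each other were joined, the stretch that holds the Tlx1 domain grew to 77.8 kb from 7 islands, that of Pax3 to 60.6 kb from 3 and that of Hlx to 60.2 kb from 6. None of the 3 joined stretches had a knockout island over it.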
